A study of Mus musculus with 4 samples.

Results

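The 46 genes described here encode subunits of the MLL/SET1 (COMPASS) complexes and of Polycomb repressive complexes 1 and 2 (PRC1 and PRC2). They were chosen by gene symbol, 17 for MLL/SET1, 9 for PRC2 and 20 for PRC1, and all 46 were found among the 55401 gene identifiers of the deposited tables through a GRCm38 annotation. All 46 passed the filter on low counts, as did 16511 genes in all. Messenger RNA was measured in EB3 mouse embryonic stem (ES) cells kept on gelatin with LIF, a cytokine that holds such cells undifferentiated. Cells carrying NUP98-HOXA9, a leukaemia fusion of a nucleoporin with a homeodomain factor, gave 2 libraries (replicates 1 and 2), and wild-type cells gave 2: 1 of the parental EB3 line and 1 of EB3-derived cells with an empty vector. The labels state neither the vector's promoter nor whether the fusion replicates are separate clones or cultures, so a p-value here reflects the spread among 4 libraries, which may be technical. Only 1 library controls for the vector, and the parental cells did not carry it.

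MLL/SET1 complexes place methyl groups on lysine K4 of histone H3, a mark of active promoters and enhancers. PRC2 methylates lysine K27 of the same histone and PRC1 attaches ubiquitin to histone H2A, and both hold developmental genes, the Hox clusters among them, silent in ES cells. Many such genes carry the activating and the repressive mark together in these cells, and NUP98 fusion proteins are known to bind chromatin together with the MLL1 complex. The comparison asked whether the genes of these complexes themselves differ in RNA level between fusion and wild-type cells.

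In every pair of values below, fusion replicates 1 and 2 come in that order, and the parental library comes before the empty-vector library. Levels between genes are compared in TPM, which the authors scaled by transcript length and depth. Levels of 1 gene between libraries are given in CPM, the count as a rate of all counts in a library after TMM scaling. Libraries held 19820401 and 21151729 (fusion) and 19957932 and 19021386 (wild type) estimated counts. Hoxa9 stood at 190 and 127 CPM in the fusion libraries and had 0 counts in both wild-type libraries. Nup98 stood at 310 and 296 CPM in fusion cells against 216 and 218 CPM in wild-type cells. Reads of the construct and of the cell's own genes are not separated. The 8 ES cell markers, of which 0 passed the test, summed to 5285 and 5263 CPM in fusion cells and to 4670 and 4930 CPM in wild-type cells. Of the 8, 37.5% had an unadjusted p under 0.05 by edgeR, against 20.1% of all genes. These were Nanog and Klf4, higher in fusion cells (log2 1.11 and 1.4), and Utf1, lower (log2 -0.46). The 6 fibroblast feeder markers summed to 41 and 50.4 CPM in fusion cells against 38.1 and 25.1 CPM in wild-type cells. Genes of chromosome 15 had a median log2 ratio of 0.34 in fusion replicate 1 to the mean of the other libraries (397 genes), and those of chromosome 8 a median of 0.41 in the parental library (549 genes). Of 16 endoderm markers, 14 were tested, 8 of them averaging at least 1 CPM in wild-type cells, and 11 rose by the test described next, summing to 1987 and 1832 CPM in fusion cells and 705 and 676 CPM in wild-type cells, with Afp and Ttr at 0.73 CPM or less in all libraries. Of 6 markers of the 2-cell-like state 5 rose, with sums of 90.9 and 468 CPM against 5.89 and 17 CPM. Over all genes tested, 2.83% were called higher. Of the markers that rose, Gata6, Sox17, Sox7, Foxa2, Tmem92 and Zfp352 had 0 to 10 counts in each wild-type library. They passed the filter through the fusion libraries and could only be called higher. The part of such cells in the values of Cbx8, Phc2, Pcgf5 and the other subunit genes was not tested, and in bulk libraries more cells of a type and more RNA per cell cannot be told apart.

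No gene of these complexes passed the test. Of the 46, 0 rose and 0 fell at a Benjamini-Hochberg adjusted p of 0.05 in edgeR's quasi-likelihood test over all genes, where 3.42% of all genes tested were called (2.83% higher and 0.581% lower). At an unadjusted p of 0.05, 6 members were higher and 2 lower, 17.4% of the members, against 20.1% of all genes (12.7% higher and 7.41% lower). Among those higher, Cbx8 had too few wild-type counts to have been called lower. Both fusion libraries lay above both wild-type libraries for 12 members and below for 10, together 47.8% of the members, where 51.3% of all genes tested did not overlap (27.1% above and 24.2% below). The median log2 fold change of fusion over wild type was 0.05 over the members and 0 over all genes, with positive values in 25 of 46. The other tools differed in the count: DESeq2's Wald test called 4 members, Ncoa6, Phc2, Aebp2 and Dpy30, where it called 8.21% of all genes, and limma on log2(TPM + 1) called 0, where it called 3.39%. In edgeR fits, 6 members were called with no filter (6.75% of all genes), 1 with library totals (3.24%), 1 where genes needed 1 CPM in 2 libraries (4.2%), and 0 with DESeq2 size factors (3.91%) or without the robust fit (3.4%). None was called against the parental line alone (0.63% of all genes) or the empty vector alone (0.497%). None was called without fusion replicate 1 (0.938%), fusion replicate 2 (3.23%), parental (2.56%) or empty vector (2.72%).

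**Figure D1:**
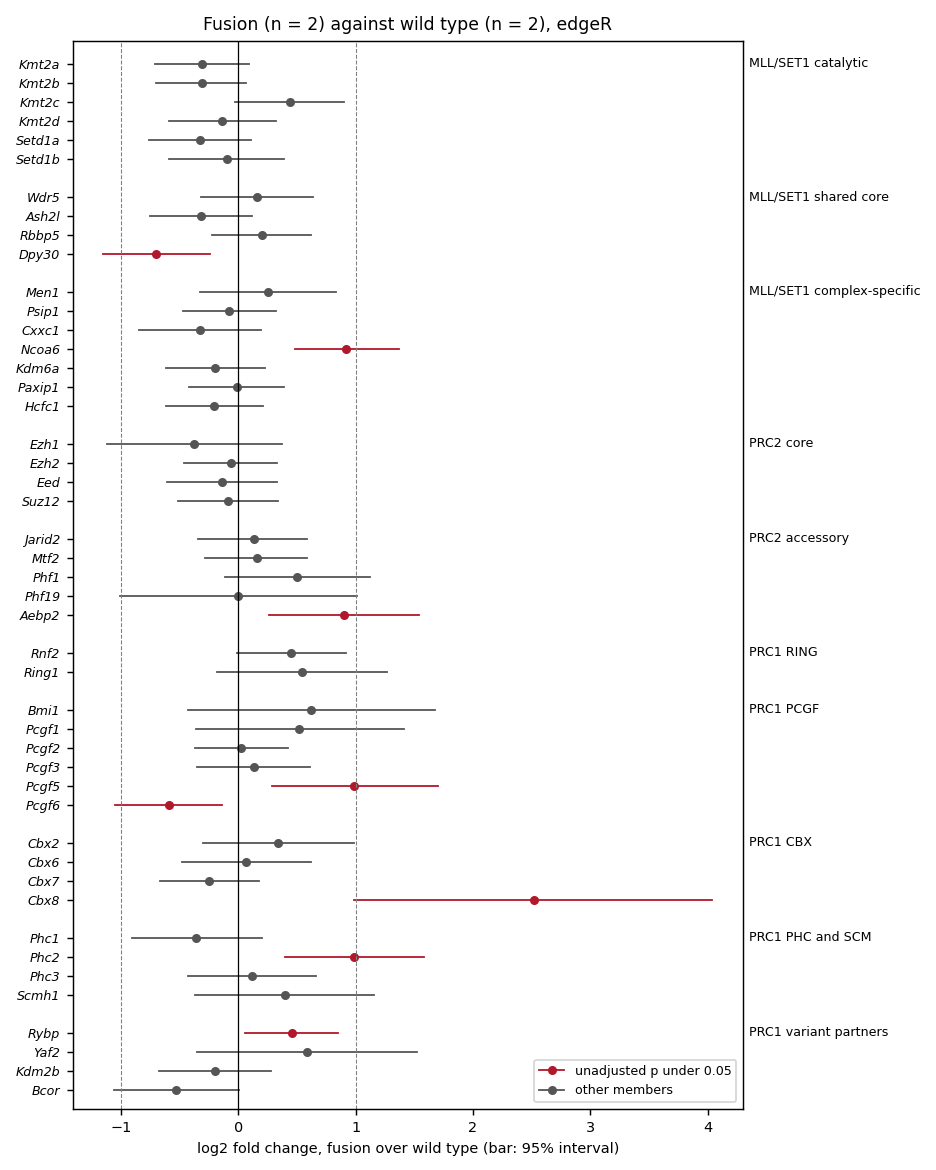
Log2 fold change of fusion (n = 2) over wild-type (n = 2) libraries for each subunit gene, with its 95% interval as a bar; genes are grouped by complex, and dashed lines mark 2-fold either way. No gene passed the adjusted threshold, and 30 of the 46 intervals lie wholly within the dashed lines.

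The intervals give the size of difference that these libraries allow. For 30 members the 95% interval lay wholly within 2-fold in either direction, and for 5 of them (Psip1, Paxip1, Ezh2, Suz12 and Pcgf2) wholly within 1.5-fold. These 5 were singled out after their values were seen. The median half-width of the interval was 0.47 on the log2 scale. The intervals rest on the standard error implied by the F statistic, and assume that the 2 kinds of control are replicates of each other.

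Among the catalytic subunits of the MLL/SET1 complexes, no gene passed and all 6 intervals lay within 2-fold. Kmt2a, which encodes MLL1, the methyltransferase best known at Hox genes, stood at 95.6 and 105 CPM in fusion cells and at 128 and 121 CPM in wild-type cells (log2 -0.31, SE 0.17, adjusted p = 0.367, edgeR). Kmt2b, whose product MLL2 marks silent developmental promoters in ES cells, stood at 154 and 167 CPM against 201 and 198 CPM (log2 -0.31, interval -0.7 to 0.07). In both genes the groups did not overlap, with the fusion libraries below. Setd1a, one of a pair of enzymes that deposit most promoter methylation, showed the same order, 129 and 136 CPM in fusion cells against 185 and 148 CPM. The groups overlapped for its paralogue Setd1b (71.6 and 58.8 against 62.3 and 77.7 CPM).

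The enhancer methyltransferases gave other orders. Kmt2c (MLL3) stood at 115 and 145 CPM in fusion cells and 88.1 and 103 CPM in wild-type cells, the only catalytic gene with both fusion libraries above, and its log2 fold change was 0.44 (interval -0.03 to 0.9, adjusted p = 0.278, edgeR). Kmt2d (MLL4) stood at 170 and 132 CPM against 174 and 158 CPM, and the groups overlapped. Kmt2d lies on chromosome 15, whose genes were higher in fusion replicate 1, and it too was higher there than in replicate 2. The part of that chromosome in the fold change was not tested. Per length, Kmt2b and Setd1a took the largest shares of the family's TPM, 25.7% and 29.8% in fusion cells against 30.9% and 32.5% in wild-type cells for Kmt2b, and 23.9% and 24.2% against 29.2% and 24.7% for Setd1a. Kmt2c took 13.9% and 16.1% of it in fusion cells and 8.64% and 10.6% in wild-type cells. Kmt2d gave 19.6% and 14.7% in fusion cells against 15.4% and 15% in wild-type cells, and Kmt2a and Setd1b each gave under 10% in every library.

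The 4 subunits that all MLL/SET1 complexes share summed to 665 and 591 TPM in fusion cells and 661 and 813 TPM in wild-type cells, where the 6 catalytic genes summed to 144 and 160 TPM against 155 and 162 TPM. Of the 4, Dpy30 differed most between the groups. Dpy30 (chr17:74299474-74323944 in GRCm38), which encodes the small subunit that docks on Ash2l, stood at 98.1 and 81.3 CPM in fusion cells and 133 and 157 CPM in wild-type cells. Both fusion libraries lay below both wild-type libraries. The log2 fold change was -0.7 (SE 0.19, interval -1.15 to -0.24), with an unadjusted p of 0.00821 and an adjusted p of 0.101 by edgeR. Over the 13 alternatives its log2 fold change ran from -0.84 to -0.56 and its adjusted p from 0.0218 to 0.303. Wdr5, the histone-tail reader of the core, stood at 305 and 268 CPM against 219 and 294 CPM, and Rbbp5, which contacts the catalytic domain, at 109 and 113 CPM against 88.4 and 104 CPM. Ash2l, its partner in activating the enzyme, stood at 307 and 244 CPM in fusion cells and 349 and 338 CPM in wild-type cells (log2 -0.32, adjusted p = 0.406, edgeR). Ash2l lies on chromosome 8, whose genes were higher in the parental library. The part of that chromosome in the values of Ash2l was not tested.

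Of the 7 subunits particular to 1 kind of MLL/SET1 complex, Ncoa6 came closest to the threshold. Ncoa6 (chr2:155390656-155473894), the nuclear receptor coactivator of the MLL3 and MLL4 complexes, stood at 96.9 and 81.8 CPM in fusion cells and at 49.1 and 45.1 CPM in wild-type cells. The groups were well apart, and the controls differed little from each other. Its log2 fold change was 0.92 (SE 0.19, interval 0.48 to 1.37), a 1.9-fold higher mean, with an adjusted p of 0.0504 by edgeR, just outside the threshold. It passed with library totals (adjusted p = 0.042), with a filter of 1 CPM in 2 libraries (0.0474), with no filter (0.00401) and by DESeq2 (0.00325). It did not pass when any 1 library was left out, and its log2 fold change then lay between 0.79 and 1.04. The log2 fold change was 0.86 against the parental line alone and 0.98 against the empty vector alone. By limma on log2(TPM + 1) it was 0.7, the lowest of the alternatives, and did not pass (adjusted p = 0.143).

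The other complex-specific genes stayed closer to their controls. Kdm6a, which encodes the H3K27 demethylase UTX of the MLL3 and MLL4 complexes, stood at 79 and 74.9 CPM against 81.4 and 94.9 CPM, with the fusion libraries below. Paxip1, of the same complexes, stood at 95.3 and 97.4 CPM against 103 and 92 CPM (log2 -0.01, interval -0.42 to 0.39). Men1, whose product menin tethers MLL1 and MLL2, stood at 103 and 76.1 CPM against 88.5 and 62 CPM, and its controls lay 0.51 apart on the log2 scale. Psip1, the chromatin reader LEDGF that binds with menin, stood at 259 and 268 CPM against 294 and 261 CPM. Cxxc1, the CpG-binding subunit of the SET1 complexes, stood at 54.7 and 46.1 CPM against 72.1 and 54.5 CPM, and Hcfc1, a scaffold of SET1 and MLL1 complexes, at 513 and 432 CPM against 558 and 533 CPM. Hcfc1 had both fusion libraries below the controls (log2 -0.21, interval -0.62 to 0.21). In the other 4 the groups overlapped. Kdm6a and Hcfc1 lie on chromosome X. Its genes had median log2 ratios of -0.12 and -0.09 in the fusion libraries and 0.09 and 0.15 in the wild-type libraries. Each ratio is to the mean of the other libraries (318 genes). The part of that chromosome in the values of Kdm6a and Hcfc1 was not tested.

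**Figure D2:**
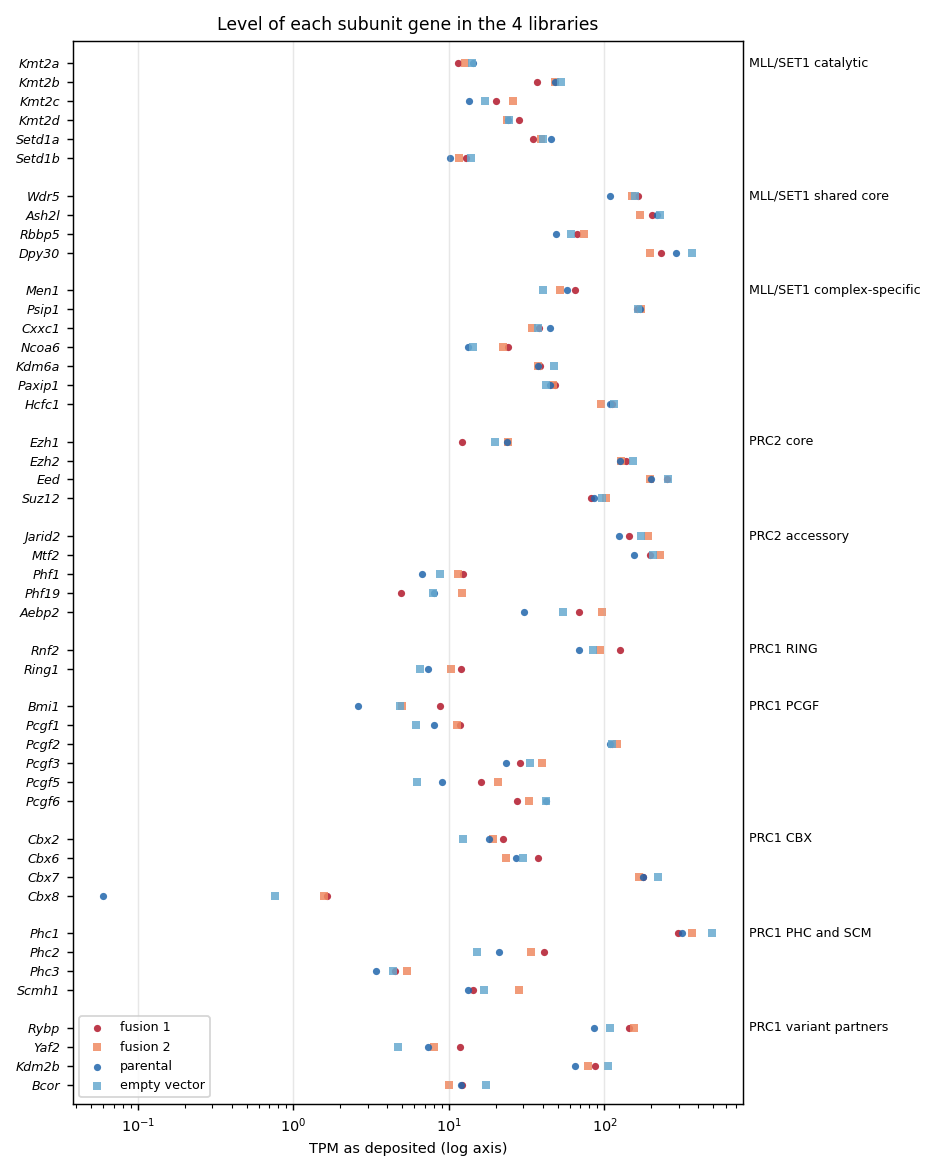
Level of each subunit gene in each library, in TPM on a log axis, grouped by complex; each point is 1 library. Cbx8 is the lowest in all libraries, Phc1 the highest, and most genes span less than 2-fold over the 4 libraries.

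The 4 core genes of PRC2 all overlapped between the groups. Ezh2, the main methyltransferase of dividing cells, stood at 171 and 155 CPM in fusion cells and at 165 and 176 CPM in wild-type cells (log2 -0.06, SE 0.17, interval -0.46 to 0.33). Eed, which reads the mark and stimulates the enzyme, stood at 196 and 148 CPM against 178 and 201 CPM, and the scaffold Suz12 at 231 and 285 CPM against 269 and 279 CPM. Ezh1, the weaker paralogue, was low in 1 library alone, with 29.4 and 55.9 CPM in fusion cells against 60.5 and 50.3 CPM in wild-type cells. Without fusion replicate 1 its log2 fold change was 0.01 in place of -0.38. Ezh2 supplied 91.9% and 84.1% of the pair's TPM in fusion cells and 84.2% and 88.6% in wild-type cells.

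Among the accessory genes, which define 2 forms of PRC2, 1 of 5, Aebp2, had an unadjusted p under 0.05. Aebp2 (chr6:140622663-140678472), a zinc finger subunit of the JARID2 form, stood at 120 and 177 CPM in fusion cells against 63.9 and 95.5 CPM in wild-type cells. The groups did not overlap, but empty vector and parental differed by 0.58 on the log2 scale and the fusion libraries by 0.56. The log2 fold change was 0.9 (SE 0.27, interval 0.26 to 1.54) with an unadjusted p of 0.013 and an adjusted p of 0.127 by edgeR. Against the parental line alone it was 1.22 and against the empty vector alone 0.64. Its partner Jarid2, which helps to bring PRC2 to chromatin, stood at 526 and 674 CPM against 505 and 595 CPM, and the groups overlapped. Of the TPM of both genes together, Aebp2 made up 32.3% and 33.6% in fusion cells and 19.7% and 24% in wild-type cells.

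Mtf2, Phf1 and Phf19 encode the Polycomb-like subunits of the other form, and Mtf2 made up 90.6% to 92.5% of their summed TPM in every library. Mtf2 stood at 381 and 421 CPM in fusion cells and 321 and 398 CPM in wild-type cells. Phf1 stood at 20.4 and 18.2 CPM against 12.4 and 14.7 CPM, with both fusion libraries above (log2 0.5, adjusted p = 0.341, edgeR). Its annotated span overlaps Cuta on the other strand, and the sources used here do not say if reads were assigned by strand. Of the 46 members, 15 overlap a gene on the other strand, Psip1, Mtf2, Rnf2 and Kdm2b among them, and the same limit holds for these. Phf19 differed most between the fusion libraries, 7.97 and 19.6 CPM in fusion cells against 13.3 and 14.2 CPM in wild-type cells. Without fusion replicate 2 its log2 fold change was -0.79 and with both it was 0.

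**Figure D3:**
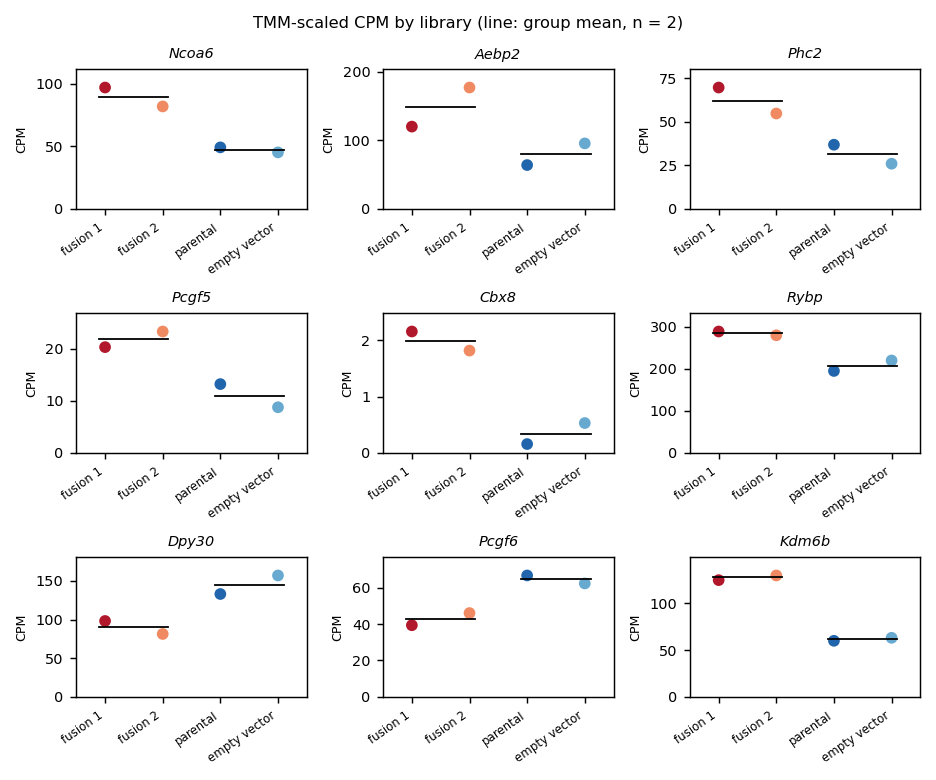
TMM-scaled CPM in each library for the 8 members with an unadjusted p under 0.05 and for Kdm6b, a related demethylase gene; lines are group means (n = 2), and each axis starts at 0. The genes were chosen by the test on these same values, and in none of the 9 panels do the fusion and wild-type libraries overlap. Among all genes tested, 51.3% did not overlap.

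Both RING genes, which encode the ubiquitin ligases of PRC1, lay above the controls in both fusion libraries without passing. Rnf2 (RING1B) stood at 148 and 114 CPM in fusion cells and 91.1 and 99.8 CPM in wild-type cells (log2 0.45, interval -0.01 to 0.92, adjusted p = 0.257, edgeR). Ring1 (RING1A) stood at 12.4 and 11.7 CPM against 9.58 and 6.95 CPM (log2 0.54, adjusted p = 0.391). Rnf2 gave 91.3% and 90.1% of the pair's TPM in fusion cells and 90.4% and 92.8% in wild-type cells.

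The 6 PCGF genes set the kind of PRC1, and the 2 with an unadjusted p under 0.05, Pcgf5 and Pcgf6, lay in opposite directions. Pcgf5 (chr19:36348309-36460970), of a variant PRC1 known for its part in X inactivation, stood at 20.3 and 23.3 CPM in fusion cells and 13.2 and 8.75 CPM in wild-type cells. Its log2 fold change was 0.99 (SE 0.3, interval 0.29 to 1.7, unadjusted p = 0.0126, adjusted p = 0.126, edgeR). The controls lay 0.58 apart on the log2 scale, so the value against the parental line alone was 0.73 and against the empty vector alone 1.32. Pcgf6 (chr19:47033617-47050906), of the variant PRC1 that silences germ cell genes in ES cells, stood at 39.4 and 46.1 CPM in fusion cells and 66.8 and 62.4 CPM in wild-type cells (log2 -0.59, SE 0.19, interval -1.05 to -0.14, unadjusted p = 0.0177, adjusted p = 0.148). It passed under none of the 13 alternatives. Both genes lie on chromosome 19, whose median gene stayed within 0.04 of the other libraries on the log2 scale in each library.

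The canonical PCGF gene of these cells showed no such gap. Pcgf2 (MEL18) stood at 111 and 116 CPM in fusion cells and 116 and 108 CPM in wild-type cells (log2 0.02, interval -0.37 to 0.42). Its paralogue Bmi1 was low, 9.62 and 5.56 CPM against 3.59 and 6.26 CPM, and the groups overlapped. Pcgf1, of the PRC1 form that contains Kdm2b and Bcor, stood at 5.56 and 5.47 CPM against 4.32 and 3.34 CPM with no overlap (adjusted p = 0.509, edgeR), and Pcgf3, the close relative of Pcgf5, at 76.3 and 97.4 CPM against 73.3 and 85.7 CPM. Per length Pcgf2 gave 54.4% and 52.1% of the family's TPM in fusion cells and 56.1% and 54.4% in wild-type cells. Pcgf6 gave 13.5% and 14.4% in fusion cells against 21.8% and 20.8% in wild-type cells, and Pcgf5 gave 7.9% and 9.04% against 4.67% and 3.07%. With 2 libraries a group, an exact permutation test of such a share cannot reach the threshold, and none was run.

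**Figure D4:**
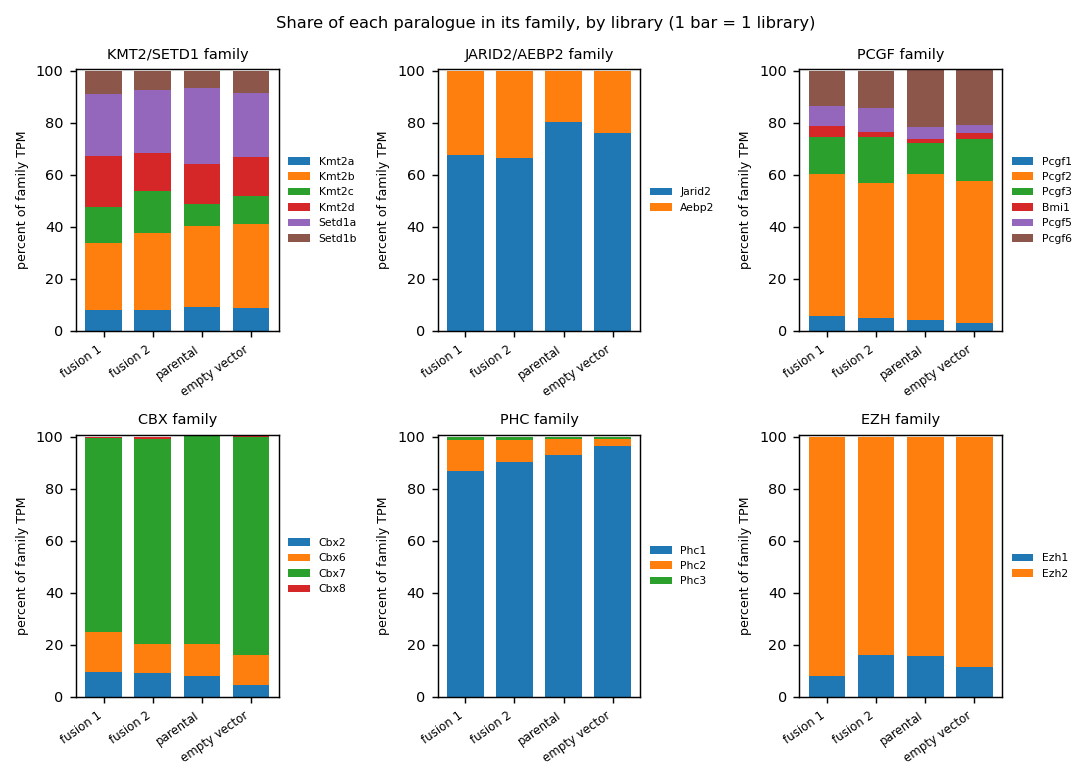
Share of each gene in the summed TPM of its panel, 1 stacked bar for each library. The panels are paralogue families, except that Jarid2 and Aebp2 are partners in 1 form of PRC2 and not paralogues. Pcgf6 has a smaller share in both fusion libraries than in the controls, Aebp2 and Phc2 a larger one, while Cbx7, Phc1 and Ezh2 lead their families in every library.

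Of the 4 CBX genes measured here, whose chromodomains read the PRC2 mark, Cbx7 led in all libraries and Cbx8 was nearly silent in the controls. Cbx7, the main CBX gene of ES cells, stood at 302 and 258 CPM in fusion cells and 310 and 354 CPM in wild-type cells, with both fusion libraries below (log2 -0.25, interval -0.67 to 0.18, adjusted p = 0.52, edgeR). It gave 74.3% and 79.1% of the TPM of the 4 genes in fusion cells and 79.8% and 83.8% in wild-type cells. Cbx8 (chr11:119036305-119040969), a CBX gene known to come up as ES cells differentiate, had 43 and 40 counts in the fusion libraries and 3 and 10 in the wild-type libraries, or 2.16 and 1.82 against 0.156 and 0.53 CPM. It had the largest log2 fold change of the 46, 2.52 (SE 0.65, interval 0.99 to 4.04, unadjusted p = 0.00584, adjusted p = 0.0862, edgeR). Its wild-type counts alone would not have kept Cbx8 among the genes tested. In this fit the gene could therefore be called higher but not lower, and its p-value is to be read with that limit. The parental value rests on 3 counts, so no ratio to that library is given; against the empty vector alone the log2 fold change was 1.89. On the log2(TPM + 1) scale, which understates the change of low genes, it was 0.93.

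Cbx2, another gene of differentiating cells, stood at 55.4 and 45.8 CPM in fusion cells and 49.4 and 30.4 CPM in wild-type cells, with a gap of 0.7 on the log2 scale between the controls, and the groups overlapped. Cbx6 stood at 123 and 80.4 CPM against 99.6 and 94 CPM. Cbx6 and Cbx7 lie on chromosome 15, and both were higher in fusion replicate 1 than in replicate 2, as was the median gene there. Without fusion replicate 1 the log2 fold change of Cbx6 was -0.27 in place of 0.07. The span of Cbx7 overlaps Apobec3 on the other strand, which reached 149 CPM in 1 library.

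The promoters of Cbx7 and Cbx8 are printed because these genes of 1 family stood far apart in level while their promoters are alike in CpG content. Per length, Cbx7 stood at 177 and 167 TPM in fusion cells and 177 and 222 TPM in wild-type cells, and Cbx8 at 1.64 and 1.57 TPM against 0.06 and 0.76 TPM. The sequences are the 250 bases before the RefSeq start in GRCm38.p6, read 5′ to 3′ on the minus strand, with each CG in capitals. CG reads the same on both strands. Cbx7 (chr15:79932647-79932896) holds 23 CG and Cbx8 (chr11:119040914-119041163) 22, at 64.8% and 66.4% G and C.
Cbx7: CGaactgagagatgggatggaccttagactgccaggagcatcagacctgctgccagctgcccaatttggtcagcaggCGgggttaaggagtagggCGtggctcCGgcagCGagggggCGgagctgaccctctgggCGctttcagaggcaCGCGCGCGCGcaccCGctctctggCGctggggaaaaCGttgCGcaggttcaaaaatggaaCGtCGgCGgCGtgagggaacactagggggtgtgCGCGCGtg
Cbx8: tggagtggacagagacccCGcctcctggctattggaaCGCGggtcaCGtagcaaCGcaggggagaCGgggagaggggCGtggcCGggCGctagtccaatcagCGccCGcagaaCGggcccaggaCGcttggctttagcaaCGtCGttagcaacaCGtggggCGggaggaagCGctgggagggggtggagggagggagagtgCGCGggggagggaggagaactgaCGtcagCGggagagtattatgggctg

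Among the members as a whole, 37 of 46 had an entry in the RefSeq promoter table, and 31 of these (83.8%) had at least 1 CpG-rich start, taken as at least 50% G and C and an observed-to-expected CG ratio of at least 0.6. Among the genes tested that had an entry, 64.6% of 11386 had one. The letters TGATTTAC on either strand, a joint site of HOX and PBX proteins, were in none of the 55 member promoters and in 0.496% of all 32851. That says only that these letters are not in these windows.

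The PHC genes, whose products link PRC1 complexes into chains, were led by Phc1, the highest of all members per length. Phc1 stood at 299 and 363 TPM in fusion cells and 313 and 493 TPM in wild-type cells, and in counts at 519 and 597 against 565 and 865 CPM. The empty-vector library was the high one, and the groups overlapped. Phc2 (chr4:128654702-128752881) stood at 69.6 and 54.7 CPM in fusion cells and 36.8 and 25.9 CPM in wild-type cells, with no overlap. The log2 fold change was 0.99 (SE 0.25, interval 0.4 to 1.58, unadjusted p = 0.00547, adjusted p = 0.0833, edgeR), 0.75 against the parental line alone and 1.26 against the empty vector alone. Phc2 gave 11.9% and 8.43% of the family's TPM in fusion cells against 6.19% and 2.94% in wild-type cells. Phc3 stood at 26.3 and 30.6 CPM against 23.6 and 28.8 CPM, and Scmh1, a related SAM-domain gene of canonical PRC1, at 18 and 33.3 CPM against 19.5 and 19.5 CPM. Scmh1 was high in fusion replicate 2 alone, and without that library its log2 fold change was -0.11 in place of 0.4.

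The partners of variant PRC1 included 1 gene with an unadjusted p under 0.05. Rybp (chr6:100228565-100287485), which takes the place of CBX proteins in variant PRC1, stood at 289 and 280 CPM in fusion cells and 195 and 220 CPM in wild-type cells (log2 0.46, SE 0.17, interval 0.06 to 0.85, unadjusted p = 0.0299, adjusted p = 0.194, edgeR). Its paralogue Yaf2, on chromosome 15, stood at 13 and 8.62 CPM against 9.17 and 5.2 CPM, and the groups overlapped. Rybp gave over 92% of the pair's TPM in each library. Kdm2b, the CpG-binding protein that brings the PCGF1 form of PRC1 to CpG islands, stood at 156 and 147 CPM against 147 and 201 CPM. Bcor, the corepressor of the same form, stood at 46.2 and 39.8 CPM in fusion cells and 52.2 and 71.8 CPM in wild-type cells, with the fusion libraries below (log2 -0.53, interval -1.06 to 0.01, adjusted p = 0.256). Bcor lies on chromosome X, whose median gene was also lower in the fusion libraries. The part of that chromosome in the values of Bcor was not tested.

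The gap between the 2 controls bears on all of these values. For 22 of the 46 members, empty vector and parental were further apart on the log2 scale than fusion and wild-type cells were. The share of all genes in this order was not taken. A ratio of single libraries also varies more than a difference of group means, so the count does not describe a trait of these members. The median size of the log2 ratio was 0.24 between the controls, 0.23 between the fusion replicates and 0.32 between the groups. The controls were at least 1.5-fold apart for 5 members, where 24.6% of all genes tested were, and the fusion replicates for 6, where 24.9% were. These are single libraries set against each other, so no test was run. Of the 46 members, 42 averaged at least 10 CPM, against 9734 of the 16511 genes tested. The shares were not taken at equal level, so they do not show these members to be steadier than other genes. The controls of Ncoa6, Pcgf6 and Rybp were close, while those of Cbx8, Pcgf5, Aebp2 and Phc2 differed by at least 0.51.

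**Figure D5:**
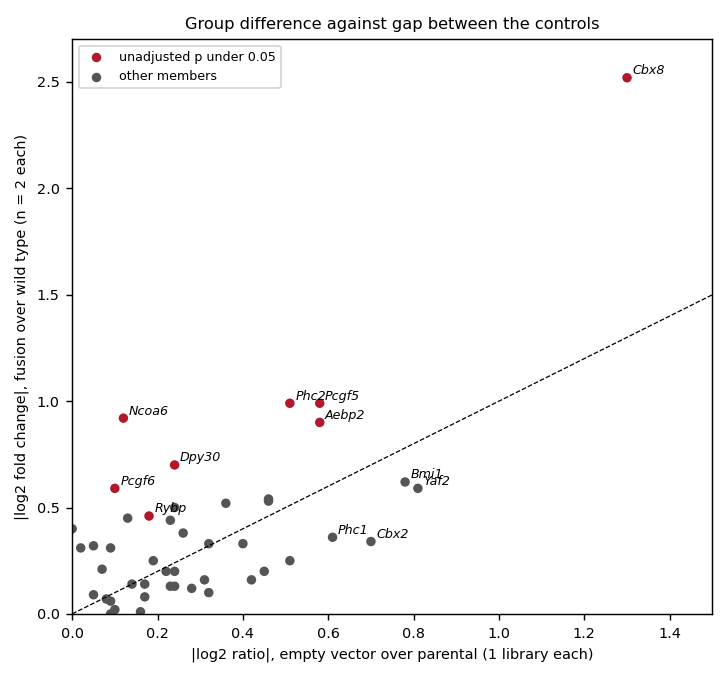
Size of the log2 fold change of fusion over wild type (n = 2 each) against the size of the log2 ratio of empty vector over parental (1 library each), 1 point for each member; the dashed line marks equality. Ncoa6, Dpy30 and Pcgf6 lie well above the line, and Phc1, Cbx2, Bmi1 and Yaf2 lie below it.

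The deposited tables also give each gene's mean transcript length, weighted by RSEM's estimate of isoform abundance. The fusion libraries did not overlap the controls in this length for 17 of 46 members (37%), 11 longer and 6 shorter, where 26.5% of all genes tested did not (14.1% longer and 12.4% shorter). Ncoa6 was estimated at 6020 and 5691 bases in fusion cells and at 5002 and 4642 bases in wild-type cells, a ratio of 1.21. This lowers its TPM relative to its CPM in fusion cells. Its annotated transcripts run from 413 to 7101 bases. Kmt2d was estimated at 8949 and 8601 bases in fusion cells against 9835 and 9439 in wild-type cells, which raises its TPM relative to its CPM. Phc3 was estimated at 8659 and 8763 bases against 9352 and 9608. These estimates rest on gene-level tables and say nothing of which isoform differs.

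Related genes outside the 46 were taken from lists set with earlier results of these data known. Of 6 tested demethylases of H3K4 and H3K27, 1 rose and 0 fell, where 2.83% of all genes tested were called higher and 0.581% lower. Kdm6b (chr11:69398508-69413675), the H3K27 demethylase JMJD3, stood at 125 and 130 CPM in fusion cells and 60 and 63.2 CPM in wild-type cells (log2 1.05, SE 0.17, interval 0.65 to 1.45, adjusted p = 0.0295, edgeR). The replicates of each group lay close together. It did not pass without any 1 of the libraries, with adjusted p from 0.0571 without the empty vector to 0.0992 without fusion replicate 1, nor against a single control (0.0983 for parental and 0.121 for empty vector), while its log2 fold change stayed between 1 and 1.14. Uty, the Y-linked relative of Kdm6a, stood at 21.3 and 2.37 CPM in fusion cells and 25.5 and 14.4 CPM in wild-type cells, low in fusion replicate 2, and is named here after its values were seen. The 4 genes taken for chromosome Y, Uty among them, had median log2 ratios of 0.64 and -0.88 in fusion cells. In wild-type cells these medians were 0.59 and -0.16. The part of that chromosome in the values of Uty was not tested. Kdm5c, an X-linked demethylase of H3K4, stood at 189 and 182 CPM against 204 and 226 CPM. The median gene of chromosome X was also lower in the fusion libraries, and its part in the values of Kdm5c was not tested.

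In the related lists of complex partners and cofactors other than the demethylases, none passed by edgeR, where 3.42% of all genes tested did. Of 6 partners of the PCGF6 form of PRC1, 4 had an unadjusted p under 0.05 and lay lower in fusion cells, where 7.41% of all genes tested did. L3mbtl2, which represses germ cell genes with PCGF6, stood at 171 and 131 CPM in fusion cells and 235 and 266 CPM in wild-type cells (log2 -0.73, adjusted p = 0.098), and Mga, its DNA-binding scaffold, at 201 and 210 CPM against 257 and 329 CPM (log2 -0.51, adjusted p = 0.193). L3mbtl2 lies on chromosome 15. Of 4 further PRC2 genes, 1 had an unadjusted p under 0.05, where 20.1% of all genes tested did. This was Epop, an elongin-binding partner of PRC2 in ES cells, at 447 and 350 CPM in fusion cells and 201 and 252 CPM in wild-type cells (log2 0.81, adjusted p = 0.0836). Of 5 further COMPASS genes the smallest p belonged to Hcfc2, a paralogue of Hcfc1, at 12.9 and 12.4 CPM against 6.77 and 7.21 CPM (log2 0.86, adjusted p = 0.156). Of 11 DOT1L and elongation genes it belonged to Mllt10, which encodes a DOT1L partner, at 108 and 113 CPM against 66.5 and 74.8 CPM (log2 0.64, adjusted p = 0.0978). The 7 genes of the Polycomb deubiquitinase group gave 0 with an unadjusted p under 0.05, against the same 20.1% of all genes.

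Developmental genes known to carry Polycomb marks in ES cells, outside the Hox clusters, were at low levels in wild-type cells. Of 16 listed, 9 passed the count filter, and 3 of the 9 averaged at least 1 CPM in wild-type cells. Gata4, Gata6, Sox17 and Foxa2 rose, where 2.83% of all genes tested were called higher, but Gata6, Sox17 and Foxa2 had 0 to 9 counts in each wild-type library and passed the filter through the fusion libraries, so they could only be called higher. Gata4, a cardiac and endoderm factor, stood at 27.4 and 25.9 CPM in fusion cells and 2.55 and 1.33 CPM in wild-type cells (adjusted p = 0.00851, edgeR). Gata6, which directs primitive endoderm, stood at 20.7 and 26 CPM against 0.469 and 0.212 CPM, and the endoderm factors Sox17 and Foxa2 at 6.97 and 6.75 against 0 and 0.159 CPM and 3.81 and 2.1 against 0.26 and 0.106 CPM (adjusted p between 0.00476 and 0.0324, edgeR). Foxa2 did not pass without fusion replicate 1 (adjusted p = 0.144), without the empty vector (0.0613), or against parental (0.119) or empty vector (0.0902) alone. Sox17 did not pass without fusion replicate 1 (0.0537). These 4 are among the endoderm markers that rose. Of the other listed genes tested, Cdx2, Msx1 and Lhx2 lay above the controls without passing, where 27.1% of all genes tested lay above. The wild-type libraries held 18 and 8 counts of Cdx2 and 4 and 9 of Lhx2. Those counts alone would not have kept these 2 genes among the genes tested, so their place above is to be read with that limit. The groups overlapped for Eomes and Hand1. Olig2, Nkx2-2, Lhx5, Isl1, Neurog2, Pax3 and Tbx5 did not pass the count filter.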

How the data were processed

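RNA-seq of 4 libraries was analysed from the gene tables that the authors deposited, which hold RSEM expected counts, TPM, FPKM and transcript lengths per the file headers. The submitters' processing notes name the tools RSEM 1.3.3, STAR 2.7.10a and DESeq2 1.36.0, with GRCm38 as the build. The expected counts, as deposited, were rounded to whole numbers; 9.16% to 10.18% of values were not whole. The counts were tested with edgeR 4.0.16 in R 4.3.3 (TMM, filterByExpr with a minimum count of 10, robust quasi-likelihood, Benjamini-Hochberg over 16511 genes, threshold 0.05), on 2 fusion against 2 wild-type libraries. The common biological coefficient of variation came to 25.6% on 2 residual degrees of freedom. The fit was also run on simulated counts that gave every gene the same dispersion, below the common value of these data. That run does not measure the error rates of the fit here. Alternatives were library totals, DESeq2 size factors, other filters, DESeq2 1.42.0, limma 3.58.1 on log2(TPM + 1) of the deposited TPM, each control alone, and each library left out. The authors' FPKM and CPM served as alternatives for shares within families. Symbols came from GENCODE vM21 (55141 of 55401 identifiers, 99.53%). Interval widths use the standard error from the F statistic. Values in every library are given for the members with an unadjusted p under 0.05, those 1.5-fold apart with no overlap, the catalytic genes and the Ezh, Pcgf, Cbx and Phc families; each related list names calls and up to 2 genes of smallest p. The members and lists were chosen with earlier results of these data known.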

Additional observations from a re-analysis of the deposited data

How the results depend on the processing

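The limits are 2 libraries a group, 1 of each kind of control, and a median 95% half-width of 0.47 (log2). Of the 46 members, 1 was called with library totals, 6 with no filter, 1 when genes needed 1 CPM in 2 libraries, and 4 by DESeq2's Wald test, and 0 when any 1 library was left out; the cause was not tested. Over all genes, 1946 were called with no filter (67.6% of them higher, against 83% in the edgeR test as reported), 104 against the parental line alone, 82 against the empty vector alone, 1355 by DESeq2, and 163 to 552 with 1 library left out. Of 598 member values under 13 alternatives, 545 kept their direction and side of the threshold, 12 passed in addition and 41 changed sign, over 19 members. With limma the log2 fold change was 0.09 for Kmt2d, 0.04 for Setd1b, 0.14 for Paxip1, 0.02 for Suz12 and -0.02 for Phf19. Against the parental line it was 0.06 for Setd1b, -0.03 for Pcgf2 and 0.05 for Kdm2b. Against the empty vector it was -0.04 for Wdr5, 0.01 for Psip1, 0.07 for Paxip1, -0.04 for Phf19 and -0.02 for Phc3. With library totals it was 0.05 for Paxip1 and 0 for Ezh2, with no filter -0.03 for Phf19 and 0 for Pcgf2, and with DESeq2 size factors or its Wald test -0.02 for Phf19. With 1 library left out, log2 fold changes ran from -0.34 to 0.04 for Kmt2d, -0.27 to 0.04 for Setd1b, -0.05 to 0.36 for Wdr5, -0.01 to 0.51 for Men1, -0.11 to 0.05 for Paxip1, -0.91 to 0.01 for Ezh1, -0.14 to 0.01 for Ezh2, -0.36 to 0.05 for Eed and -0.24 to 0.05 for Suz12. They ran from -0.06 to 0.29 for Jarid2, -0.01 to 0.3 for Mtf2, -0.79 to 0.5 for Phf19, -0.05 to 0.06 for Pcgf2, -0.06 to 0.29 for Pcgf3, -0.27 to 0.34 for Cbx6, -0.03 to 0.24 for Phc3, -0.11 to 0.77 for Scmh1 and -0.42 to 0.02 for Kdm2b. With CPM in place of TPM, which leaves out length, mean shares in fusion and wild-type cells were 21.7% and 24.3% for Kmt2b, 79.4% and 75.5% for Ezh2, 41% and 40.6% for Pcgf2 and 64.7% and 70.7% for Cbx7, and 86% in fusion cells for Phc1. No paired analysis was possible because the wild-type libraries carry no replicate numbers in the labels.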
